A study of Mus musculus with 2 samples.

Results

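The TIGIT, CD226 and CD96 axis was followed through 4 genes chosen by symbol, Cd226, Tigit, Cd96 and Pvr, out of 27998 genes in the matrices. The cells were viable CD45+ immune cells sorted from MC38 tumours and sequenced as droplet libraries with the 10x Genomics 3' chemistry. MC38 is a mouse colon carcinoma line; it had been placed intradermally at 4 sites in C57BL/6J mice and grown for 7 days. The anti-PD-1 library came from tumours that had received an anti-PD-1 antibody by injection, with a daily dose of 200 µg for each mouse. The control library came from tumours injected with a control agent that the labels do not name, and all tumours were taken on day 10. There was 1 library per group, and how many mice went into each is not stated in the sources used here. Every difference below is therefore between 2 libraries, with no replicate check, and every interval is a 95% interval that covers counting error only.

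The 3 receptors bind an overlapping set of ligands of the nectin family. CD226 (DNAM-1) is an activating receptor of T and NK cells, TIGIT is an inhibitory receptor that competes with it for the ligand PVR (CD155), and CD96 (Tactile) binds PVR as well and has been described as inhibitory in mouse NK cells. PVR is carried by tumour cells and by myeloid and dendritic cells, where it meets these receptors on lymphocytes.

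Barcodes with at least 1000 UMIs and at most 10% mitochondrial UMIs were kept as cells, 3321 in the anti-PD-1 library with a median of 2763 UMIs and 1174 in the control library with a median of 3287. A Ptprc (CD45) UMI was found in 75.5% of anti-PD-1 and 78.0% of control cells, and tumour epithelial markers (Krt8, Krt18, Epcam) had 51 and 45 UMIs in all. Cells were assigned to classes by gates on marker UMIs, which gave 1060 anti-PD-1 and 71 control CD8 T cells, 159 and 82 Foxp3 T cells, 138 and 64 NK cells with the granzymes Gzmc to Gzmg, 341 and 232 NK cells without them, and 563 and 354 myeloid cells. CD4 T cells without regulatory markers numbered 54 and 16, too few for a ratio, and a further 379 and 160 T cells met none of the 3 T-cell gates. Outside all gates lay 18.9% and 16.6% of cells. In CD8 T cells the Cd3 genes stood at 4003 CPM (UMIs of the gene or list, scaled to 1000000 UMIs of the class) in anti-PD-1 and 3479 CPM in control cells.

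Tigit (ENSMUSG00000071552) lies on chromosome 16 from 43648867 to 43664146 and Cd96 (ENSMUSG00000022657) on chromosome 16 from 46035657 to 46120251, both on the minus strand of GRCm38. Pvr (ENSMUSG00000040511) lies on chromosome 7 from 19903578 to 19921160 on the minus strand. Pvr overlaps 2 gene models on the opposite strand, Gm16184 and Gm16251, and the sources used here do not say whether the counting used strand. Promoter windows of 300 bases were at hand for 2 of the 4 members, from RefSeq on GRCm38.p6. They are shown because Cd96 was among the receptors most read in these cells and Tigit was read hardly at all. The Tigit window is chr16:43664135-43664434 and the Cd96 window chr16:46120199-46120498, both printed on the minus strand, 5′ to 3′, with matches to searched motifs in capitals.
Tigit: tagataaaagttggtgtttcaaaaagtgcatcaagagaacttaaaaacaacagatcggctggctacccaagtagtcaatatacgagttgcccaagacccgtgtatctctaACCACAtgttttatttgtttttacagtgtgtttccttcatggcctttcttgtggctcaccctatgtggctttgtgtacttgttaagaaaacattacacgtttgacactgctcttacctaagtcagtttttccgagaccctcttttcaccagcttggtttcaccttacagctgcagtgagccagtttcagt
Cd96: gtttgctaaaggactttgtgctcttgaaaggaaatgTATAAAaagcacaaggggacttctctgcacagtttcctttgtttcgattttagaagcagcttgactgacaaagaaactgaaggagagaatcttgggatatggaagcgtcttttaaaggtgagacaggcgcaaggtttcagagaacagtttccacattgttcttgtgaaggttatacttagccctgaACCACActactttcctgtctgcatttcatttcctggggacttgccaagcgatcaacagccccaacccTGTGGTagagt
The capitals are matches to the RUNX core TGTGGT, searched on both strands and so also printed as its reverse complement, and to TATAAA, searched on the sense strand. The RUNX letters occurred once in the Tigit window, starting at position -140 from the start site of the RefSeq window, and at positions -28 and 40 in the Cd96 window, which also held TATAAA at position -214. Of 32851 promoter windows of this length, 16.8% held the RUNX letters and 8.32% held TATAAA. Neither window held the ETS letters AGGAAG or the T-box letters AGGTGTGA, found on either strand in 35.4% and 1.28% of all windows. On the minus strand the RefSeq model of Tigit begins at 43665125, upstream of the Tigit window, which lies inside that model. These matches describe the letters of the windows and say nothing of binding.

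Cd226 (ENSMUSG00000034028, GRCm38 chromosome 18, 89176967 to 89272229, plus strand), the activating receptor, was read in T and NK cells, and its level in CD8 T cells was higher in the anti-PD-1 library. CD8 T cells held 435 Cd226 UMIs in the anti-PD-1 and 15 in the control library. This was 113 CPM (103 to 124) in anti-PD-1 and 54.1 CPM (30.3 to 89.2) in control cells, a log2 ratio of 1.07 (0.33 to 1.91). Stricter gates asked for 1 more UMI of each lineage list and also barred T cells with any UMI of Ncr1, Klrb1c or Klre1. Under them the log2 ratio was 0.56 and its interval included 0 (-0.23 to 1.49). In the same comparison 4.09% of 7913 genes with at least 20 UMIs were at least 2-fold higher and 8.15% at least 2-fold lower, and the median log2 ratio was -0.07. Counts under 3 UMIs were raised to 3 here, which is 10.8 CPM in control cells. Genes less than 2-fold above that level in anti-PD-1 cells could not count as higher, so 4.09% may understate that share. With every cell taken at 1000 UMIs, 11.8% of anti-PD-1 and 5.30% of control CD8 T cells would carry a Cd226 UMI; at full depth, with medians of 2946.5 and 3254 UMIs per cell, the shares were 28.9% and 15.5%. Myeloid cells, which served as background at medians of 5017 and 4750.5 UMIs, gave 0.303% and 0.131% at 1000 UMIs and 1.78% and 1.13% at full depth.

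The 2 libraries differed in which CD8 T cells they held, and Cd226 was also read by state. Cells with a Gzmk UMI numbered 696 of 1060 in the anti-PD-1 and 16 of 71 in the control library. Among anti-PD-1 cells Cd226 stood at 122 CPM in those with Gzmk and 95.3 CPM in those with Gzmb and no Gzmk, a log2 ratio of 0.36 (0.02 to 0.72). The control cells with Gzmk held 1 Cd226 UMI, 16.9 CPM (0.43 to 93.9), the lowest point value of the control states, in too few cells for a ratio. In cells with Gzmb and no Gzmk, Cd226 was at 95.3 CPM in 284 anti-PD-1 and 59.7 CPM in 30 control cells, a log2 ratio of 0.68 whose interval included 0 (-0.37 to 1.93). In cells with neither granzyme it was at 79.5 and 71.4 CPM, a log2 ratio of 0.15 (-1.23 to 1.77). With these last 2 states weighted alike and the cells with Gzmk left out, the log2 ratio was 0.41 in place of 1.07. This drops the state with the widest gap in CPM between the libraries, so it does not isolate the mix of states. The part of the mix of states in the difference was not tested.

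Cell cycle state also went with the level. In the anti-PD-1 library Cd226 was at 58.0 CPM in 118 cycling CD8 T cells (at least 2 UMIs of Mki67, Top2a, Birc5 and Cdk1) and at 131 CPM in 942 others, a log2 ratio of -1.18 (-1.61 to -0.77). Cd96 was lower in the same cells, at 47.4 CPM in cycling and 101 CPM in other cells, a log2 ratio of -1.09 (-1.58 to -0.64). Of 7735 genes, 8.97% were at least 2-fold lower in cycling cells. Counted per cell, both receptors were not lower, with 0.466 Cd226 UMIs per cycling and 0.403 per other cell, and 0.381 and 0.311 Cd96 UMIs. Cycling cells were the deeper ones, with a median of 6968.5 UMIs against 2836. Without the cycling cells, Cd226 in CD8 T cells was at 131 CPM in the anti-PD-1 and 44.3 CPM in the control library, a log2 ratio of 1.57 (0.67 to 2.64), and Cd96 at 101 and 57.6 CPM, a log2 ratio of 0.81 (0.02 to 1.74).

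Among other T cells, Cd226 stood at 38.3 CPM in anti-PD-1 and 21.7 CPM in control T cells outside the 3 gates, and the interval of their log2 ratio of 0.82 included 0 (-0.21 to 1.99). Foxp3 T cells held 4 and 3 UMIs, 9.28 and 11.5 CPM. CD8 T cells exceeded Foxp3 T cells in both libraries, by a log2 ratio of 3.61 (2.24 to 5.49) in anti-PD-1 and 2.23 (0.41 to 4.66) in control. The 54 anti-PD-1 and 16 control CD4 T cells held 8 and 3 Cd226 UMIs, 57.6 CPM (24.9 to 113) in anti-PD-1 and 61.7 CPM (12.7 to 180) in control, with intervals that overlap those of the CD8 T cells of the same library. They also held 11 and 1 Cd96 UMIs, 1 and 0 Pvr UMIs and no Tigit UMI. Myeloid cells held 10 and 4 Cd226 UMIs, 3.08 and 2.13 CPM. Ordered by level in the control library, and with CD4 T cells left out for having under 20 cells there, the classes ran from CD8 T cells through NK cells with Gzmc to Gzmg, NK cells without them and Foxp3 T cells to myeloid cells. Among neighbours in that order, an interval that excluded 0 separated the 2 NK classes and no other pair. CD8 T cells held 75.0% of all Cd226 UMIs of anti-PD-1 cells and 18.1% of those of control cells, and NK cells held 7.24% and 32.5%.

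**Figure D1:**
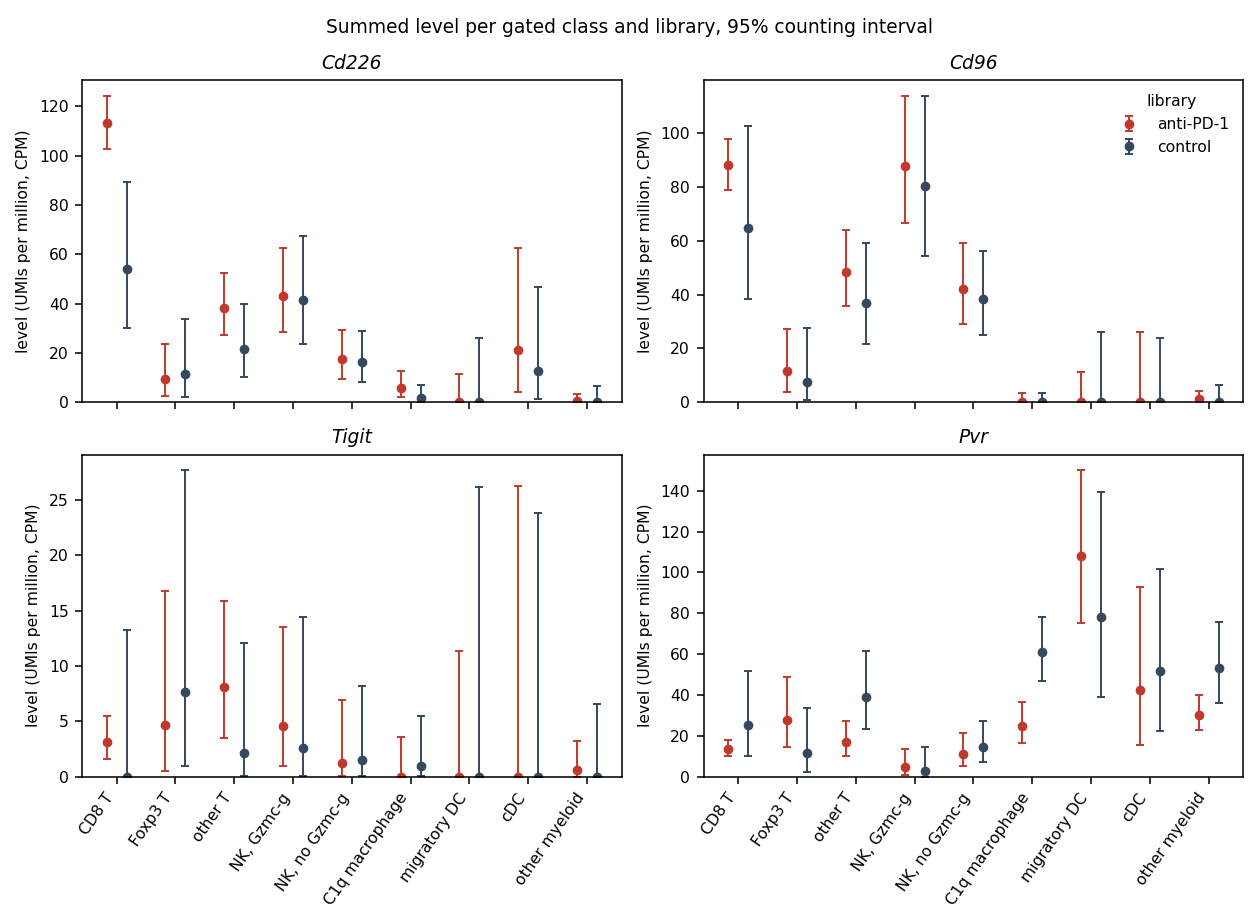
Level of the 4 members in CPM (linear axis from 0) in 9 gated classes (CD4 T cells are not drawn), anti-PD-1 (red, left) and control (dark, right). Points are summed UMIs of 1 library and bars 95% Poisson intervals. Cd226 and Cd96 sit in CD8 T and NK cells, Pvr in dendritic and other myeloid cells, and Tigit stays under 10 CPM in every class shown.

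Tigit, the inhibitory competitor of Cd226, was barely read in either library. All cells together held 29 Tigit UMIs in the anti-PD-1 and 6 in the control library. CD8 T cells held 12 in anti-PD-1, 3.12 CPM (1.61 to 5.45), each in a different cell, and 0 of 71 control cells had one, so a share up to 4.23% and a level up to 10.8 CPM cannot be told from 0. The anti-PD-1 level lies below that limit, so no difference was detectable at this depth. T cells outside the 3 gates held 8 and 1 UMIs, 8.06 and 2.17 CPM, and Foxp3 T cells 2 and 2, 4.64 and 7.67 CPM. NK cells held 4 and 2 UMIs, and myeloid cells 1 and 1. No neighbouring pair of classes in the order of Tigit levels was separated by its interval. The RefSeq model of Tigit runs 22730 bases beyond the 3' end of the GENCODE model, whereas for the other members the ends differ by at most 5 bases. In a 3' library, reads from that stretch count only if the annotation used holds it, and the sources used here do not name that annotation. What this does to the Tigit counts was not tested.

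Cd96 was read mainly in CD8 T and NK cells, and the intervals of its level overlapped between the libraries in each of the 9 plotted classes. In CD8 T cells it had 338 and 18 UMIs, 87.9 CPM (78.8 to 97.8) in anti-PD-1 and 64.9 CPM (38.5 to 103) in control, and the interval of the log2 ratio of 0.44 included 0 (-0.24 to 1.21). At 1000 UMIs per cell, 9.43% of anti-PD-1 and 8.46% of control CD8 T cells would carry a Cd96 UMI. NK cells with Gzmc to Gzmg stood at 87.9 CPM in anti-PD-1 and 80.2 CPM in control, beside the CD8 T cells of the same library (log2 ratio of CD8 T over NK cells 0.00, -0.41 to 0.43, in anti-PD-1, and -0.31, -1.23 to 0.58, in control). Foxp3 T cells held 5 and 2 UMIs, 11.6 and 7.67 CPM, under the CD8 T cells by a log2 ratio of CD8 over Foxp3 of 2.92 (1.69 to 4.55) and 3.08 (1.02 to 6.23). Myeloid cells held 2 UMIs in anti-PD-1 and 0 in control, a level of up to 1.60 CPM. T cells outside the 3 gates were at 48.4 and 36.9 CPM. Over all cells, CD8 T cells held 60.8% of the Cd96 UMIs of the anti-PD-1 library and 17.8% of those of the control library, and NK cells 16.4% and 56.4%.

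Whether CD8 T cells with a Cd96 UMI also carried Cd226 was read cell by cell, and the intervals overlapped. In the anti-PD-1 library at 1000 UMIs per cell, Cd226 would be seen in 13.4% (7.41 to 21.7) of the cells with a Cd96 UMI and 11.6% (9.65 to 13.8) of those without. It would be seen in 11.2% (6.56 to 17.5) of cells with a Pdcd1 UMI and 11.9% (9.85 to 14.1) of those without. At full depth 96 of 1060 cells carried both Cd226 and Cd96. In the control library 2 of 71 did, too few to compare.

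**Figure D2:**
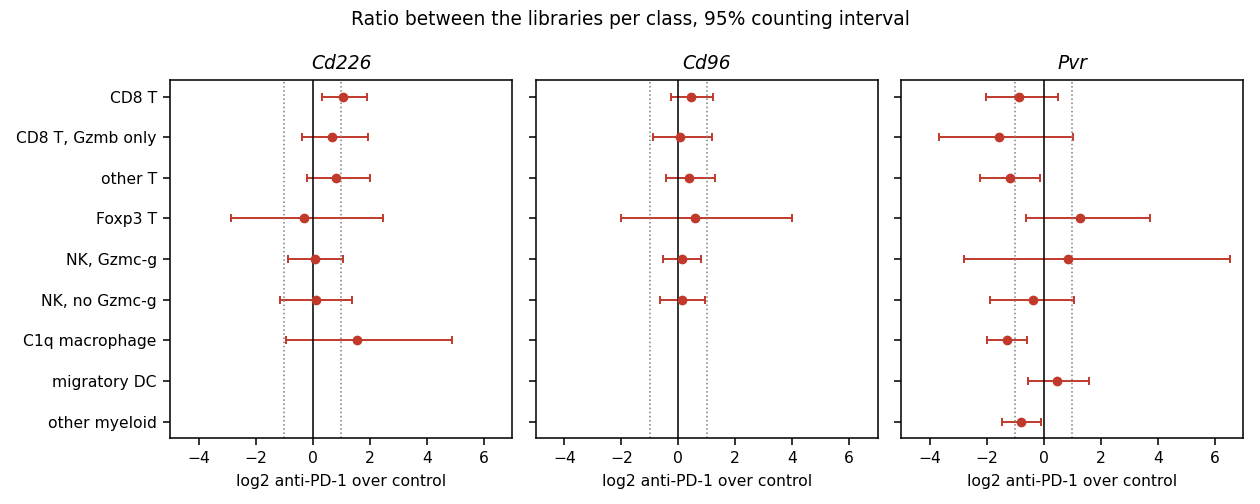
Log2 ratio of anti-PD-1 over control for Cd226, Cd96 and Pvr in 9 cell classes, with 95% counting intervals; dotted lines mark 2-fold. Pairs with 0 UMIs in a library or under 20 cells have no point. The Cd226 interval excludes 0 in CD8 T cells, no Cd96 interval does, and Pvr intervals lie below 0 in C1q macrophages, other myeloid cells and T cells outside the 3 gates.

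NK cells with Gzmc to Gzmg, granzymes that mouse NK cells induce on activation, had more of both receptors than NK cells without them, in each library. Cd226 had 28 UMIs with and 14 without these granzymes in the anti-PD-1 library, 43.2 against 17.4 CPM, a log2 ratio of 1.31 (0.34 to 2.35). In the control library it had 16 and 11 UMIs, 41.4 against 16.2 CPM, a log2 ratio of 1.35 (0.16 to 2.61). Cd96 was at 87.9 CPM with and 42.3 CPM without in the anti-PD-1 library, a log2 ratio of 1.06 (0.42 to 1.71), and at 80.2 and 38.3 CPM in control, a log2 ratio of 1.07 (0.27 to 1.88). At least 2-fold higher in NK cells with these granzymes were 3.34% of 5414 genes in the anti-PD-1 and 2.85% of 4456 genes in the control library, with a median log2 ratio of -0.10 in both. Cd226 and Cd96 were both past 2-fold in both libraries. Pdcd1, which encodes PD-1, went the same way, at 49.3 CPM with and 1.24 CPM without in anti-PD-1 and 41.4 and 2.94 CPM in control. The cells with these granzymes were deeper, with medians of 4199.5 against 2044 UMIs in anti-PD-1 and 5360 against 2544.5 in control. At 1000 UMIs per cell Cd226 would be seen in 4.01% (1.41 to 8.77) of cells with and 1.68% (0.60 to 3.68) without in anti-PD-1, and in 4.68% (0.97 to 13.1) and 1.67% (0.44 to 4.28) in control, with intervals that overlap. Of the T-cell list the gate admits Cd3g alone, which was at 92.5 CPM with and 38.5 CPM without in anti-PD-1 and at 59.5 and 17.7 CPM in control; its part in the difference was not tested.

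Between the libraries, the intervals of both receptors included 0 in NK cells. In NK cells with Gzmc to Gzmg, Cd226 had a log2 ratio of anti-PD-1 over control of 0.06 (-0.88 to 1.04) and Cd96 of 0.13 (-0.52 to 0.81). In NK cells without them the log2 ratios were 0.10 (-1.14 to 1.39) for Cd226 and 0.14 (-0.64 to 0.94) for Cd96. These intervals still allow differences of about 2-fold for Cd226 in either direction. Pvr was low in NK cells, with 3 and 1 UMIs in those with and 9 and 10 UMIs in those without these granzymes.

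The balance of the activating receptor with the others was read as the Cd226 share of the UMIs of Cd226, Tigit and Cd96. How well each gene's 3' end is captured enters such a share, so it is compared between classes and libraries and not read as a ratio of molecules. In CD8 T cells Cd226 made up 55.4% (51.9 to 58.9) of 785 UMIs in the anti-PD-1 library and 45.5% (28.1 to 63.6) of 33 UMIs in the control library; the intervals overlap. Tigit made up 1.53% in anti-PD-1 and had no UMI in control. Within anti-PD-1 CD8 T cells the Cd226 share was 56.3% with Gzmk, 54.0% with Gzmb and no Gzmk, and 48.7% with neither, with overlapping intervals.

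NK cells leaned to Cd96 in both libraries. Cd226 made up 30.7% (23.1 to 39.1) of the 3 receptors' UMIs in anti-PD-1 and 31.4% (21.8 to 42.3) in control NK cells. With Gzmc to Gzmg the share was 31.8% in anti-PD-1 and 33.3% in control, and without them 28.6% and 28.9%, with intervals that overlap. In the anti-PD-1 library the intervals of CD8 T and NK cells do not overlap; in the control library they do. T cells outside the 3 gates lay between, at 40.4% (30.4 to 51.0) in anti-PD-1 and 35.7% (18.6 to 55.9) in control. CD4 T and Foxp3 T cells had under 20 receptor UMIs in each library and are given no share; Foxp3 T cells had 4 Cd226, 2 Tigit and 5 Cd96 UMIs in anti-PD-1 and 3, 2 and 2 in control.

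**Figure D3:**
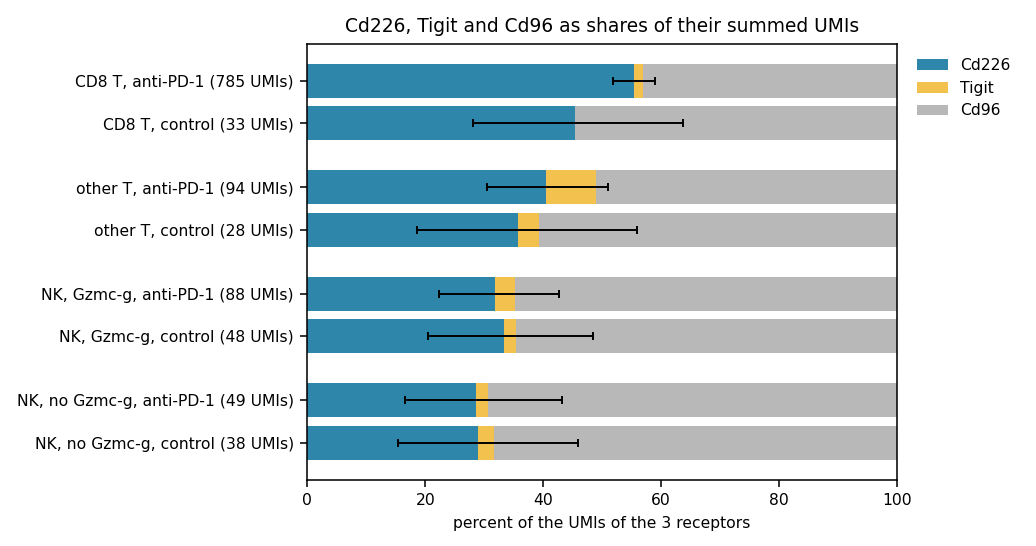
Cd226, Tigit and Cd96 as percent of their summed UMIs in 4 classes, the anti-PD-1 bar above the control bar of each class, with the number of UMIs beside it. The black line is the 95% binomial interval of the Cd226 share. Cd226 takes 55.4% in anti-PD-1 CD8 T cells and under 34% in all 4 NK bars.

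Pvr, the ligand shared by the 3 receptors, had its largest part in myeloid cells. They held 120 of its 273 UMIs (44.0%) in anti-PD-1 cells and 111 of 178 (62.4%) in control cells. Of the UMIs of all genes, myeloid cells held 26.9% and 39.8%. The level of Pvr in myeloid cells was 37.0 CPM (30.7 to 44.2) in anti-PD-1 and 59.1 CPM (48.6 to 71.1) in control. The log2 ratio was -0.68 (-1.06 to -0.29). The neutrophil markers S100a8, S100a9 and Csf3r differed in the opposite direction, at 6187 CPM in anti-PD-1 and 147 CPM in control myeloid cells. Without cells that had at least 5 UMIs of these markers, Pvr was at 43.7 CPM in anti-PD-1 and 59.7 CPM in control, a log2 ratio of -0.45 (-0.85 to -0.05). Myeloid cells exceeded NK cells by a log2 ratio of 2.16 (1.31 to 3.16) in anti-PD-1 and 2.52 (1.62 to 3.56) in control. RNA free in the droplets, read from barcodes with 10 to 50 UMIs, would give 0.296 CPM of Pvr in anti-PD-1 cells, and no Pvr UMI was read among 32195 such UMIs of the control library.

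Pvr was lower in the anti-PD-1 library in C1q macrophages, while in migratory dendritic cells its interval included 0; the difference between the 2 classes was not tested. C1q macrophages, tissue macrophages that make complement C1q, held 26 UMIs in 167 anti-PD-1 and 62 UMIs in 161 control cells, 25.02 CPM (16.3 to 36.7) against 60.8 CPM (46.6 to 78.0), with a log2 ratio of -1.28 (-2.00 to -0.60). In this class 3.68% of 6612 genes were at least 2-fold lower and 3.55% at least 2-fold higher, with a median log2 ratio of 0.03. The cells of both libraries were of like depth, with medians of 6020 and 5721 UMIs, and 13.2% of anti-PD-1 and 26.7% of control cells carried a Pvr UMI. Migratory dendritic cells, gated on Ccr7 with Fscn1, Ccl22 and Cacnb3, held 35 and 11 UMIs, 108 CPM (75.2 to 150) in anti-PD-1 and 78.0 CPM (38.9 to 140) in control, and the interval of the log2 ratio of 0.47 included 0 (-0.54 to 1.60). They exceeded C1q macrophages in the anti-PD-1 library by a log2 ratio of 2.11 (1.34 to 2.90); in the control library the log2 ratio was 0.36 (-0.72 to 1.30). Conventional dendritic cells held 6 and 8 UMIs, 42.7 and 51.7 CPM.

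The other myeloid cells were at 30.5 CPM of Pvr in anti-PD-1 and 53.2 CPM in control, a log2 ratio of -0.80 (-1.48 to -0.11). The neutrophil markers differed in the opposite direction here too, at 11253 CPM in anti-PD-1 and 58.5 CPM in control. Without cells that had at least 5 UMIs of these markers, Pvr was at 40.8 CPM in anti-PD-1 and 53.2 CPM in control, and the interval of the log2 ratio of -0.38 included 0 (-1.11 to 0.36). In C1q macrophages the same markers were at 290 and 236 CPM.

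Pvr was also read in lymphocytes. CD8 T cells held 53 UMIs at 13.8 CPM in anti-PD-1 and 7 UMIs at 25.2 CPM in control, a log2 ratio of -0.87 (-2.01 to 0.51). Foxp3 T cells held 12 and 3 UMIs, 27.8 and 11.5 CPM, with a log2 ratio of 1.27 (-0.61 to 3.74). T cells outside the 3 gates were at 17.1 and 39.1 CPM, a log2 ratio of -1.19 (-2.24 to -0.15). In the anti-PD-1 library the order of Pvr levels began with migratory dendritic cells, which stood above their neighbour, conventional dendritic cells, by a log2 ratio of 1.34 (0.07 to 2.88). The next classes were conventional dendritic cells, other myeloid cells, Foxp3 T cells and C1q macrophages, and no neighbours among them were separated by their intervals. C1q macrophages stood above the CD8 T cells that followed by a log2 ratio of 0.86 (0.12 to 1.56). In the control library no neighbours in the order were.

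Of 18 other genes of the axis found in the matrices, from a list of ligands, partners and signalling genes, 12 had at least 20 UMIs in CD8 T cells. Of these, 2 were at least 2-fold higher and none at least 2-fold lower, beside 4.09% higher and 8.15% lower of all genes tested, and their median log2 ratio was 0.11 beside -0.07. The 2 were Vav1, an exchange factor of receptor signalling, at 36.4 CPM in anti-PD-1 and 18.0 CPM in control, and Plcg1, a phospholipase of the same pathway, at 20.5 and 7.21 CPM, with 5 and 2 control UMIs and intervals that included 0. In the shares of all genes, counts under 3 UMIs were raised to 3, which is 10.8 CPM in control CD8 T cells. By that rule Plcg1 falls short of 2-fold and only Vav1 would be counted. Itgb2, a chain of the integrin LFA-1 with which CD226 associates, was at 207 CPM in anti-PD-1 and 151 CPM in control (log2 ratio 0.45, 0.01 to 0.94; without cycling cells 0.30, -0.18 to 0.82), and its partner chain Itgal at 149 and 159 CPM. Crtam, a receptor for the nectin-like molecule Cadm1, was read in CD8 T cells at 34.1 CPM in anti-PD-1 and 25.2 CPM in control. Pdcd1, the target of the antibody, was at 165 CPM in anti-PD-1 and 242 CPM in control CD8 T cells, a log2 ratio of -0.55 (-0.92 to -0.16). Without cycling cells it was -0.31 (-0.73 to 0.13), and by state it was -0.57 (-1.02 to -0.09) with Gzmb and no Gzmk and 0.71 (-0.35 to 1.94) with neither granzyme.

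Among the other ligands, Pvrl2 (nectin-2, a second ligand of CD226) held 11 UMIs in anti-PD-1 and 5 in control myeloid cells, 3.39 and 2.66 CPM, well under Pvr in the same cells. Pvrl1 (nectin-1) was read in migratory dendritic cells at 46.3 CPM in anti-PD-1 and 49.6 CPM in control. Pvrl4 (nectin-4) was at 5.86 CPM in anti-PD-1 and 10.6 CPM in control myeloid cells, a log2 ratio of -0.86 (-1.85 to 0.12), and Pvrl3 (nectin-3) had no UMI in any gated class. Cadm1 was read in conventional dendritic cells with 8 and 12 UMIs, 56.9 and 77.5 CPM. In C1q macrophages, where Pvr was lower, none of 13 other axis genes with at least 20 UMIs was at least 2-fold lower and 2 were at least 2-fold higher, beside 3.68% and 3.55% of all genes tested, with a median log2 ratio of 0.25 beside 0.03. These were Itgal, at 77.9 CPM in anti-PD-1 and 30.4 CPM in control (1.36, 0.74 to 2.00), and Fyn, a kinase that acts downstream of CD226, at 23.1 and 9.81 CPM (1.23, 0.12 to 2.46). In Foxp3 T cells, of 10 such genes, 2 were at least 2-fold lower and 1 at least 2-fold higher, beside 2.66% lower and 4.93% higher of 3795 genes. All 3 encode proteins described in TIGIT signalling, but Tigit itself had 2 and 2 UMIs in these cells and a link to it was not tested. Lower were Inpp5d (SHIP1) at 60.3 CPM in anti-PD-1 and 134 CPM in control (-1.15, -1.94 to -0.38), and Arrb2 (beta-arrestin 2) at 39.4 and 99.7 CPM (-1.34, -2.31 to -0.40), and higher was Grb2, an adaptor, at 95.1 and 42.2 CPM (1.17, 0.19 to 2.28). Inpp5d ran the other way in NK cells with Gzmc to Gzmg, at 70.9 CPM in anti-PD-1 and 23.3 CPM in control (1.61, 0.56 to 2.82). Lcp2 (SLP-76), an adaptor of receptor signalling, was at 75.8 CPM in anti-PD-1 and 41.2 CPM in control NK cells without these granzymes (0.88, 0.21 to 1.58) and at 101 and 65.5 CPM in myeloid cells (0.63, 0.33 to 0.94). Ptpn6, which encodes the phosphatase SHP-1, was at 301 CPM in anti-PD-1 and 202 CPM in control myeloid cells (0.57, 0.40 to 0.75). The neutrophil markers given above moved with both myeloid differences, and without the cells that had at least 5 UMIs of them the log2 ratios were 0.48 (0.15 to 0.82) for Lcp2 and 0.41 (0.22 to 0.60) for Ptpn6. Of the remaining signalling genes, Ptpn11, which encodes the phosphatase SHP-2, was at 29.9 CPM in anti-PD-1 and 22.4 CPM in control myeloid cells (0.42, -0.12 to 0.98), and Plcg2, a phospholipase, at 41.3 and 35.1 CPM (0.23, -0.20 to 0.68).

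Across 21 class-by-library units with at least 20 cells, which share cells and libraries, levels of 7528 genes were set beside those of the members by Pearson's r of log2(CPM + 10). The genes most like Cd96 were Klrc1, an NKG2 receptor of NK and CD8 T cells (r = 0.98), Lax1 (0.97), Ctsw (0.96), F2r (0.95) and Fasl (0.95). Those most like Cd226 were Rpl13a (0.90), Cd96 (0.89), Tomm20 (0.89), Naca (0.89) and Rpl18 (0.88), a set led by a ribosomal protein gene. Pvr was most like Stxbp3 (0.89), Zfp217 (0.86), Marcksl1 (0.85), Spop (0.85) and Tnip3 (0.85), and ran opposite to Cd226 (-0.63) and Cd96 (-0.75). Tigit, with 33 UMIs in these units, was not compared.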

How the data were processed

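Single-cell libraries from 1 anti-PD-1 and 1 control sample were analysed. The deposited files hold raw UMI counts per gene and barcode, for 737280 barcodes each; Cell Ranger 2.1 and the mm10 build are named in the submitters' processing notes, and the counts are as the authors deposited them. The matrices held 13717817 UMIs (anti-PD-1) and 5203415 (control).

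Barcodes with at least 1000 UMIs and at most 10% mitochondrial UMIs were kept, 4 of them present in both libraries. The members, gene lists and gates were chosen with earlier results of these data known. T cells needed at least 2 Cd3 UMIs, no Ncr1 UMI and under 1% of UMIs from myeloid markers. CD8 T cells also had a Cd8a or Cd8b1 UMI and no Cd4 or Foxp3 UMI, and Foxp3 T cells a Foxp3 UMI and no Cd8 UMI. NK cells needed at least 2 UMIs of Ncr1, Klrb1c and Klre1 and no Cd3d or Cd3e UMI, and were split at 2 UMIs of Gzmc to Gzmg. Myeloid cells had at least 1% of UMIs from Lyz2, C1qa, C1qb, C1qc, Apoe, Csf1r and Cst3. C1q macrophages had at least 5 C1q UMIs, migratory dendritic cells a Ccr7 UMI and at least 3 of Fscn1, Ccl22 and Cacnb3, and conventional dendritic cells at least 2 of Flt3, Cd209a, Xcr1, Clec9a and Zbtb46. No doublet caller was run. Outside the gates, 78 anti-PD-1 and 17 control cells had markers of 2 lineages. The T-cell gate barred Ncr1 but not Klrb1c or Klre1, and CD8 T cells held 348 anti-PD-1 and 49 control UMIs of these 3 genes. Neutrophil markers barred no cell from a gate. Doublets of 2 lineages can therefore remain within the gates, as can doublets within a lineage.

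Summed UMIs of each class and library, over the UMI total of that class, gave CPM, with exact Poisson intervals. Ratios have conditional binomial and shares exact Clopper-Pearson intervals. A count of 0 allows up to 3 counts. For the shares of all genes past 2-fold and their median log2 ratios, counts under 3 were raised to 3. The share of cells with a UMI at 1000 UMIs per cell is the expected value under sampling without replacement, and its interval treats the expected number as a count. Free RNA was 2.42% (anti-PD-1) and 1.68% (control) of the UMIs of cells, estimated from myeloid genes in lymphocytes. Ratios were formed where both libraries had at least 20 cells. No test across samples exists, since each group is 1 library. The members were always reported, and each listed gene of the axis found in the matrices was named with values in at least 1 class, chosen after they were seen; the 5 genes most like each member with at least 50 UMIs were named, among genes with at least 100 UMIs. The scripts, checked on simulated counts, ran in Python 3.11.15 with numpy 2.4.6, scipy 1.17.1 and pandas 2.3.3.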

Additional observations from a re-analysis of the deposited data

Results flagged for a closer look

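Cells outside all gates entered no comparison between classes, and Cd96 stood out there. It was at 31.0 CPM (23.7 to 39.9) in 627 anti-PD-1 cells and 8.26 CPM (3.03 to 18.0) in 195 control cells, with 61 and 6 UMIs, so that the intervals do not overlap. Cd226 in the same cells was at 21.9 CPM (15.8 to 29.5) in anti-PD-1 and 28.9 CPM (17.9 to 44.2) in control. The Cd226 share of the 3 receptors' UMIs was 40.6% (31.1 to 50.5) in anti-PD-1 and 77.8% (57.7 to 91.4) in control. Which cells these were was not resolved by the gates: 237 of the anti-PD-1 and 10 of the control cells had at least 5 UMIs of neutrophil markers, and 78 and 17 had markers of more than 1 lineage. Lymphocyte markers moved with Cd96 there, the Cd3 genes at 572 CPM in anti-PD-1 and 230 CPM in control, Cd8a and Cd8b1 at 135 and 22.0 CPM, Gzmc to Gzmg at 2062 and 239 CPM, and the NK list at 365 and 288 CPM. Neutrophil markers were at 44560 and 844 CPM and haemoglobin genes at 3851 and 1.38 CPM. The part of these in the Cd96 difference was not tested.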

How the results depend on the processing

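Across 16 alternatives, 1738 values were recomputed for 197 levels, ratios, shares and balances. None reversed, 1716 stayed within the counting interval of the reported value and 22 moved out of it, all of them single levels or shares and most in anti-PD-1 CD8 T cells or of Tigit. The log2 ratio of Cd226 in CD8 T cells ranged between 0.41 and 1.32. The lowest came from leaving out the CD8 T cells with Gzmk and weighting the other 2 states alike. This alternative was chosen after seeing the data, as were leaving out the barcodes present in both libraries and leaving out myeloid cells with neutrophil markers. The log2 ratio of Cd96 in CD8 T cells ranged between 0.21 and 0.60, and that of Pvr in C1q macrophages between -1.30 and -1.14. The interval of the Cd226 ratio in CD8 T cells came to include 0 with stricter gates (0.56, -0.23 to 1.49), and that of Pvr in other myeloid cells with each cell weighted alike (-0.26) or with the deepest 5% of cells left out (-0.70). With each cell thinned to 1000 UMIs, which leaves fewer UMIs, the intervals of 8 ratios that had excluded 0 came to include it, with no change of direction: Cd226 in CD8 T cells, both receptors in NK cells with over without Gzmc to Gzmg in both libraries, and Pvr in all, C1q and other myeloid cells. Comparisons of other classes were not recomputed. NK cells with over without Gzmc to Gzmg had log2 ratios of Cd226 between 1.16 and 1.41 in anti-PD-1 and between 1.24 and 1.59 in control. The Cd226 share in CD8 T cells ranged between 54.7% and 56.7% in anti-PD-1 and between 39.1% and 54.2% in control. No paired analysis was possible because there is 1 library per group, and for the same reason no replicate could be left out. The 71 control CD8 T cells, 16 of them with Gzmk, limit every CD8 comparison.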

Other observations

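Conventional dendritic cells and C1q macrophages held Cd226 UMIs and no Cd96 UMI, a pattern noticed after seeing the values. Taken by at least 2 UMIs of the conventional dendritic cell list at any myeloid share, and at most 1 T and 1 NK marker UMI, 63 anti-PD-1 and 45 control cells held 5 and 6 Cd226 UMIs, at 13.6 CPM (4.42 to 31.8) in anti-PD-1 and 18.8 CPM (6.92 to 41.0) in control. Cd96 and Tigit had 0 UMIs in these cells of both libraries, which allows up to 8.16 CPM of each in anti-PD-1 and 9.42 CPM in control. Pvr was at 73.5 and 50.2 CPM in them. Cd3 genes were at 24.5 CPM in anti-PD-1 and 9.42 CPM in control of these cells, with 9 and 3 UMIs. This set was not kept apart from migratory dendritic cells or C1q macrophages. The conventional dendritic cells gated apart from both held 3 anti-PD-1 and 2 control Cd226 UMIs, with Pvr at 42.7 and 51.7 CPM. Migratory dendritic cells, with the highest Pvr level, held 0 Cd226 UMIs in either library, which allows up to 9.26 CPM in anti-PD-1 and 21.3 CPM in control. C1q macrophages held 6 Cd226 UMIs in anti-PD-1 and 2 in control, 5.77 and 1.96 CPM, with 0 Cd96 UMIs in both libraries.

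Barcodes with at least 500 UMIs but fewer than 1000, the minimum for cells, held 11 Cd226 and 13 Cd96 UMIs in the anti-PD-1 library (30.7 and 36.3 CPM) and 0 and 1 in the control library.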
